A study of Mus musculus with 2 samples.

Results

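Vsig4 and Cd209f macrophages were a minority of the cells in cultures of mouse bone marrow derived macrophages, picked by RNA of 2 genes that mark tissue-resident macrophages. A cell belonged to them when it held at least 3 UMIs (unique molecular identifiers, 1 per captured RNA molecule) of Vsig4 plus Cd209f. The sum of the pair also had to reach at least 1 UMI per 10000 UMIs of that cell. Atp6v0d2 had to be below 1.5 per 10000, and Rsad2, Ifit1, Ifit2 and Ifit3 together below 10. These limits were meant to keep out osteoclast-like cells and cells with a strong interferon signature. The rule found 720 members among 23101 kept cells. They were 353 of 12123 cells (2.91%, exact binomial 95% interval 2.62 to 3.23) in the library from THP-treated cells and 367 of 10978 (3.34%, 3.01 to 3.70) in that from vehicle-treated cells.

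The cells came from marrow of 129Sv mice and grew with 50 ng/ml of the macrophage growth factor M-CSF in medium with 10% serum. On day 7 a culture received, for 18 h, either 1 µg/ml of a truncated form of Tamm-Horsfall protein (THP), a glycoprotein made in the kidney tubule, or the vehicle, 5% dextrose. Per the labels, TrypLE lifted the cells from the dish, dead cells were removed, and the rest were captured in Chromium droplets. There was 1 library per group, so no difference below has a replicate check, no p-value is given, and treatment cannot be told apart from culture dish or library preparation. All intervals are 95% intervals of counting error only.

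VSIG4 is a complement receptor of the immunoglobulin family that binds C3b on opsonised particles, and it is known from Kupffer cells of the liver and other resident macrophages. CD209f belongs to the mouse family of SIGN-related C-type lectins, calcium-dependent receptors that bind sugars. Resident macrophages of liver, spleen and marrow are known for clearing blood-borne particles and recycling iron from red cells, with the exporter ferroportin (Slc40a1) and the transcription factor SPI-C among their hallmarks.

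Cd209f (ENSMUSG00000051906) and its neighbour Cd209g (ENSMUSG00000079168), a gene the rule did not use, were found in the same members, so the DNA upstream of both is shown here. Both lie on mouse chromosome 8 in GRCm38. Cd209f spans 4102787 to 4105835 on the minus strand and Cd209g spans 4134098 to 4137707 on the plus strand in GENCODE M21, so they point away from each other. The spans lie 28262 bases apart with 0 protein-coding genes between them.

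The stretches below end just before the annotated untranslated sequence of the first coding transcripts. They were read from the RefSeq promoter table (GRCm38.p6), 5′ to 3′ on the strand of each gene, and capitals mark the bases that are identical in both and unbroken. The Cd209f stretch is chr8:4105836-4106014 on the minus strand (179 bases), and the Cd209g stretch is chr8:4134486-4134650 on the plus strand (165 bases), where GENCODE also places an exon of a retained-intron transcript of Cd209g.
Cd209f: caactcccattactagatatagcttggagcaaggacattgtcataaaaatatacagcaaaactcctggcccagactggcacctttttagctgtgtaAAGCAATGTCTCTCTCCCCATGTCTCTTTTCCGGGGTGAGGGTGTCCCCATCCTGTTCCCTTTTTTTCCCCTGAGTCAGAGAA
Cd209g: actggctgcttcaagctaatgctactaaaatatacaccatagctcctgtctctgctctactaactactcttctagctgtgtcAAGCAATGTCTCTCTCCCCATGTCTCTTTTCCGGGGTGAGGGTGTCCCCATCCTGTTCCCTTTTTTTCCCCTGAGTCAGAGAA
The capitals are the first 83 bases of an exact run of 154 bases that continues towards both start sites. None of the other 32849 RefSeq windows held any 30 bases of this run on either strand. Against the windows of the other Cd209 family genes with one, the longest exact run of Cd209f or Cd209g was 7 to 10 bases, and against Vsig4 it was 9. The annotated transcripts of the pair also share an exact run of 416 bases, which bears on counting. Of all 91-base windows of Cd209f transcripts, 21.3% (495 of 2320) occur in Cd209g, although 0 of 417 windows in the last 500 bases of the coding transcripts do. A read from the shared stretch could be assigned to either gene or dropped, so the split of UMIs within the pair is uncertain.

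Vsig4 (ENSMUSG00000044206, X:96247203-96293438, minus strand) chose members, so its values are a description. It stood at 274 CPM (counts per 1000000 UMIs, summed over members) in THP and 395 in vehicle. In members it was detected in 74.2% and 80.4% of cells, in that order. Cd209f, the other selecting gene, stood at 341 CPM in THP and 208 in vehicle and was detected in 55.5% and 45.5% of members. Both genes together were found in 105 THP members (29.7%) and 95 vehicle members (25.9%). Vsig4 without Cd209f was found in 157 (44.5%) and 200 (54.5%), and Cd209f without Vsig4 in 91 (25.8%) and 72 (19.6%), so most members were chosen by 1 of the pair.

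**Figure D1:**
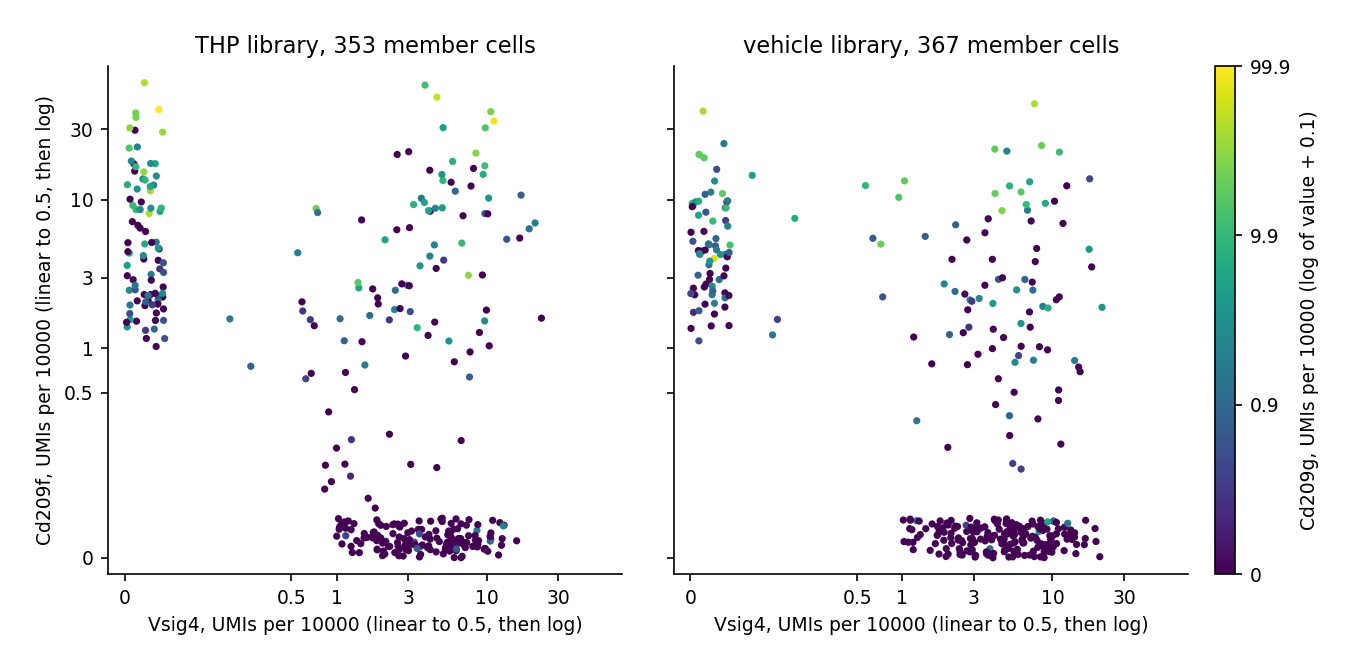
Vsig4 (x axis) and Cd209f (y axis) in each member, in UMIs per 10000 UMIs of that cell, linear up to 0.5 and logarithmic above, with points at 0 spread sideways for display. Colour is Cd209g on a log scale, for 353 THP and 367 vehicle members; Cd209g colours mainly the cells with Cd209f, and many members lie at 0 for 1 of the 2 genes.

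Selection by a limit leaves cells on both sides of it. The summed level of the pair ran from 1.00 to 63.4 per 10000 in THP members (median 4.83) and from 1.01 to 52.2 in vehicle members (median 5.53). Just inside the limit, 32 THP and 25 vehicle members held exactly 3 UMIs of the pair, with Vsig4 at 93.8 and 133 CPM. Just outside it, 40 THP and 26 vehicle cells held 2 UMIs, with Vsig4 at 31.1 and 36.7 CPM. The level limit alone kept out a further 28 THP and 15 vehicle cells with 3 or more UMIs, and 36 and 19 members lay between 1 and 1.5 per 10000. The other limits left out 21 and 11 cells in all, 9 and 9 by Atp6v0d2 and 12 and 3 by the interferon genes. Of those selecting genes, Atp6v0d2 stood at 10.1 CPM in the members of both libraries and Ifit1 at 14.7 and 12.2 CPM. The share of cells that were members depended on the gene: with Vsig4 alone it was 1.97% in THP and 2.58% in vehicle, and with Cd209f alone the order turned, to 1.34% and 1.21%.

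Depth and other cells bear on these shares. Members held a median of 24260 UMIs in THP and 22383 in vehicle, against 16113 and 17223 over all kept cells, and a limit of 3 UMIs is reached more easily in deep cells. With every cell thinned to 5000 UMIs, members were 1.52% and 2.04%. The comparison cells used below are reference macrophages, defined as cells with the complement genes C1qa, C1qb and C1qc at 10 or more per 10000 in sum and fewer than 3 UMIs of Vsig4 plus Cd209f. They also had to meet the same limits on Atp6v0d2 and the interferon genes as members. There were 1670 of them in THP and 933 in vehicle, with median depths of 20334 and 21622 UMIs. In these reference cells 3.41% and 3.97% held a Vsig4 UMI and in cells full of neutrophil RNA 0.537% and 0.714% did, at median depths of 5703.5 and 5712.5 UMIs. The 2 libraries shared 42 cell barcodes, and none of these was a member in both.

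The macrophage part of the name held in the RNA. Of 10 macrophage markers, which include Adgre1 (F4/80), Csf1r and C1qa, 9 stood at 50 CPM or more in THP members and 10 in vehicle members, with a median sum of 68.2 and 74.8 per 10000. C1qa, a subunit of the starter of the classical complement cascade, stood at 1551 and 1718 CPM. Of 6 Kupffer cell markers, with Vsig4 itself among them, 4 reached 50 CPM. The lectin Clec4f, which defines Kupffer cells in mice, was at 0.303 CPM in THP and 0.107 in vehicle, and no cell is called a Kupffer cell here. Timd4, a phosphatidylserine receptor of long-lived resident macrophages, was at 32.9 and 33.2 CPM.

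RNA of other cell types was present in some members. Neutrophil markers summed to a median of 6.19 per 10000 in THP members and 9.72 in vehicle members, with 95th percentiles of 294 and 200. In UMIs summed over members, which the ratios use, the order turned, to 5183 CPM in THP and 3754 in vehicle. Ly6g was at 0 in both. Limits set for other cell types were passed by 30 THP members (8.50%) and 39 vehicle members (10.6%). Of these, 22 and 25 passed on neutrophil genes and 11 and 17 on Mpo and Elane, enzymes of granulocyte precursors. The median sums of monocyte markers were 0.904 and 0.909, and those of myeloid progenitor markers 0.662 and 1.21. Osteoclast-like markers, Atp6v0d2 among them, summed to 439 CPM in THP members and 528 in vehicle members. In the reference macrophages, under the same limit on Atp6v0d2, they summed to 313 and 376 CPM. RNA of this kind was thus present in members despite the limit, and what the limit removed was not tested. No doublet caller was run, and whether such cells were doublets or carried free RNA was not tested.

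Cd209g followed Cd209f from cell to cell. Cd209g is another SIGN-related lectin of the same family. It was detected in 57.7% of the THP members with Cd209f (113 of 196) and in 5.73% of those without (9 of 157). In vehicle the shares were 59.9% (100 of 167) and 3.00% (6 of 200). Over members, the rank correlation of the 2 genes per 10000 UMIs was 0.65 in THP (353 cells) and 0.69 in vehicle (367 cells), within 1 library each and with the shared sequence described above. Members held 88.7% of the Cd209g UMIs of all kept THP cells and 91.2% of those in vehicle. No other Cd209 family gene gave more than 3 UMIs in the members of a library, and Cd209b and Cd209e gave 0.

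Cd209g stood at 231 CPM (222 to 241, Poisson interval) in THP members and 107 (100 to 114) in vehicle members. The log2 ratio of CPM + 1, which is the scale of every THP-to-vehicle ratio below, was 1.11. Reference macrophages held 2.33 and 1.52 CPM. The difference was spread unevenly over members: cells with Cd209f only held 515 CPM in THP and 250 in vehicle, cells with both genes 320 and 234, and cells with Vsig4 only 3.49 and 2.84. The ratio fell below 2-fold under several alternatives, the lowest being 0.69, among them membership by Cd209f alone and equal weight for every cell. THP members included more cells with Cd209f, so the make-up of the members moved with the Cd209g level, and its part in the difference was not tested.

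Members carried more RNA of genes known from resident macrophages than the reference macrophages of the same library. These are descriptions, since the members were picked on resident genes and the difference was not tested. Vcam1, an adhesion molecule of marrow and spleen macrophages that retain blood cells, stood at 214 CPM in THP members and 347 in vehicle members against 44.1 and 80.3 in the reference. Cd163, the scavenger receptor for haemoglobin bound to haptoglobin, stood at 104 and 207 against 14.2 and 49.1 CPM. The members of both libraries thus lay above their reference by more than the counting intervals.

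Cd5l, a secreted protein of resident macrophages that is induced by liver X receptors, was 6.35-fold over the reference in THP and 4.03-fold in vehicle. Nr1h3, which encodes the liver X receptor alpha, was 3.96-fold and 3.38-fold over it. Marco, a scavenger receptor for bacteria and particles, stood at 776 and 506 CPM against 173 and 163, and Timd4 was 5.69-fold and 3.99-fold. Further genes that led this order were Cd55 (a brake on complement), Cd38 (an NAD-degrading enzyme), Ccr3, Mrap, Treml4 and Epb41l3. Of 7569 genes compared, 89 (1.18%) lay at least 2-fold above the reference in both libraries and 3 (0.0396%) at least 2-fold below. Of the 27 genes of a resident macrophage list among those 7569, 12 were at least 2-fold above in both libraries and 0 below. The rule itself sets Vsig4 and Cd209f above the reference, where they stood at 1.71 and 1.98 CPM in THP and 1.96 and 2.04 in vehicle. Counts that hold them are thus in part set by the selection.

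**Figure D2:**
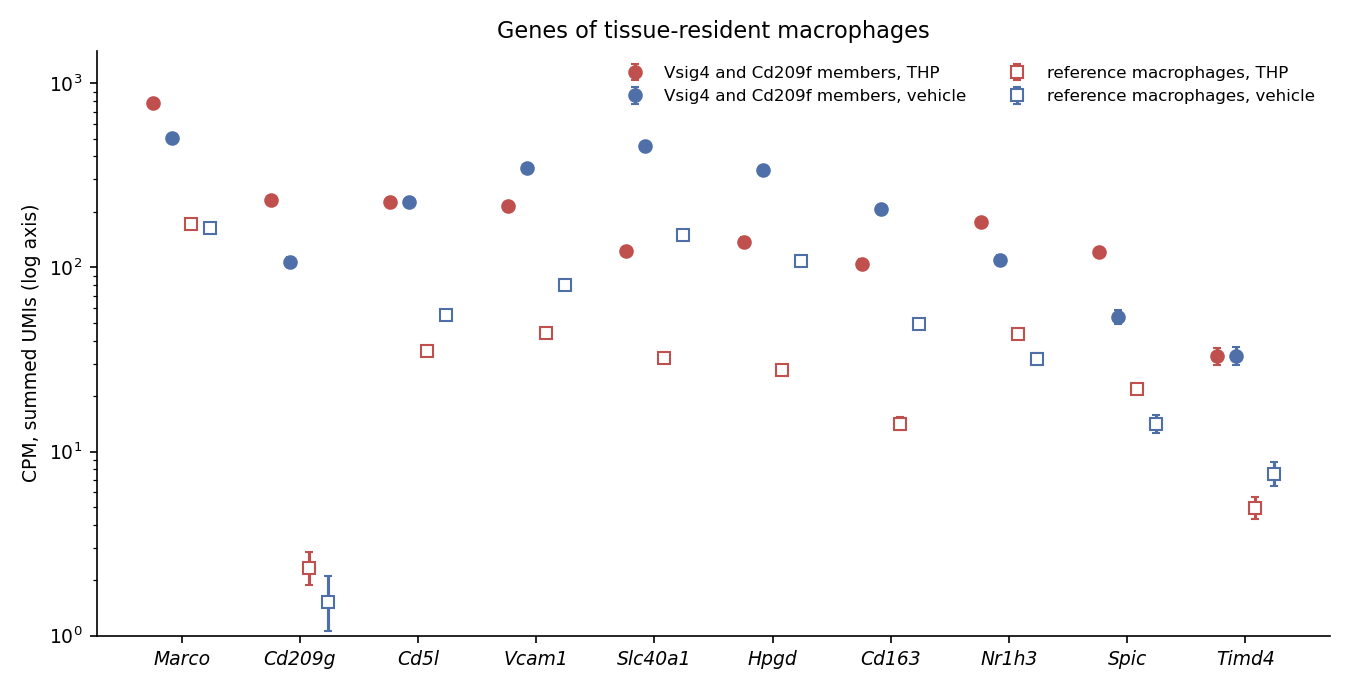
CPM (log axis) with Poisson 95% intervals for 10 genes known from resident macrophages, in members (filled circles) and reference macrophages (open squares), THP in red and vehicle in blue. Members lie above the reference macrophages of the same library for all 10 genes, and Slc40a1 and Hpgd lie lower in THP than in vehicle in both kinds of cells.

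Members were only 2.91% and 3.34% of kept cells and held 4.41% and 4.51% of their UMIs, yet they held a large share of the RNA of several of these genes. They carried 53.2% of the Cd163 UMIs of kept THP cells and 53.6% of those of kept vehicle cells. For Spic the shares were 45.8% and 50.2%, for Cd5l 44.1% and 46.8%, and for Marco 39.1% and 45.0%. The same held for the cytokine gene Il1a, at 45.3% and 51.4%.

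The genes that led the opposite order were fewer and differed less. Pf4, a platelet chemokine that cultured macrophages also express, stood at 1102 CPM in THP members and 862 in vehicle members against 2271 and 1604 in the reference. The lysosomal protease gene Ctsl stood at 1269 and 935 CPM against 2433 and 2085. S100a4, a calcium-binding protein of motile cells, stood at 1037 and 596 against 1866 and 1391. Fcrls, an Fc receptor-like gene, stood at 21.1 and 14.8 against 50.8 and 43.5, a lower level in the members of both libraries.

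Between the libraries, 91 genes of 8137 tested in members were at least 2-fold higher in THP (1.12%) and 233 were at least 2-fold lower (2.86%), with at least 10 CPM in 1 library. The median log2 ratio over all tested genes was -0.17, not 0. With TMM or RLE scaling factors the median moved to 0.04 and 0.03, with TMM 132 genes (1.63%) were higher and 93 (1.15%) lower, with RLE 130 (1.61%) and 98 (1.21%), so the higher share of calls rose from 28.1% to 58.7% and 57.0%. The log2 ratio also fell with transcript length, from a median of 0.13 in the shortest of 5 length groups to -0.46 in the longest (rank correlation -0.50 over 8132 genes). Corrected for that trend, 132 genes (1.62%) were higher and 78 (0.959%) lower, a higher share of 62.9%. All 91 genes stayed at least 2-fold higher with either set of factors.

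The lower level of ferroportin RNA was the largest difference within the resident macrophage list. Slc40a1 (ENSMUSG00000025993, 1:45908068-45926523, minus strand), the only known exporter of iron from cells, stood at 122 CPM (116 to 129) in THP members and 456 (443 to 470) in vehicle members. The log2 ratio was -1.89, and -2.28 to -1.67 over the alternatives. A UMI was found in 77.6% of THP members and 95.9% of vehicle members, or 43.4% and 81.6% with 343 and 358 members thinned to 5000 UMIs. The median member held 0.885 per 10000 (quartiles 0.232 to 2.13) in THP and 4.85 (2.13 to 7.87) in vehicle, and the upper quartile in THP lay at the lower quartile in vehicle. The difference was not confined to members: reference macrophages held 32.2 and 149 CPM, a log2 ratio of -2.17, and cells with neutrophil RNA had a UMI in 30.7% and 48.8%. In both libraries members stayed 3.71-fold and 3.05-fold above the reference.

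Other genes of iron handling differed less. Of the 18 measured genes of the iron and heme list, 0 were 2-fold higher and 1, Slc40a1, was 2-fold lower. The list median was -0.27, and 1.12% and 2.86% of all tested genes were higher and lower. Tfrc, the transferrin receptor that takes up iron, stood at 272 and 461 CPM (-0.76), and Hmox1, which opens the heme ring, at 248 and 371 (-0.58). Cd163 came just short of the limit at -0.98 in members, against -1.72 in the reference. The ferritin genes Ftl1 and Fth1, the iron store, were at -0.03 and 0.16.

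Spic (ENSMUSG00000004359, 10:88674772-88685015, minus strand), the transcription factor that red pulp and marrow macrophages need for iron recycling, was higher in THP while Slc40a1 was lower. It stood at 121 CPM (114 to 128) in THP members and 53.6 (49.0 to 58.5) in vehicle members, a log2 ratio of 1.16. The median member held 0.886 and 0.274 per 10000, and a UMI was found in 80.2% and 56.7% of members, or 39.9% and 22.1% after thinning. Reference macrophages stood at 21.8 and 14.1 CPM, a log2 ratio of 0.60, with a UMI in 17.8% and 19.1%, and 0.976% and 0.376% of cells with neutrophil RNA held one. With membership by Cd209f alone the ratio in members was 0.97, just under 2-fold.

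**Figure D3:**
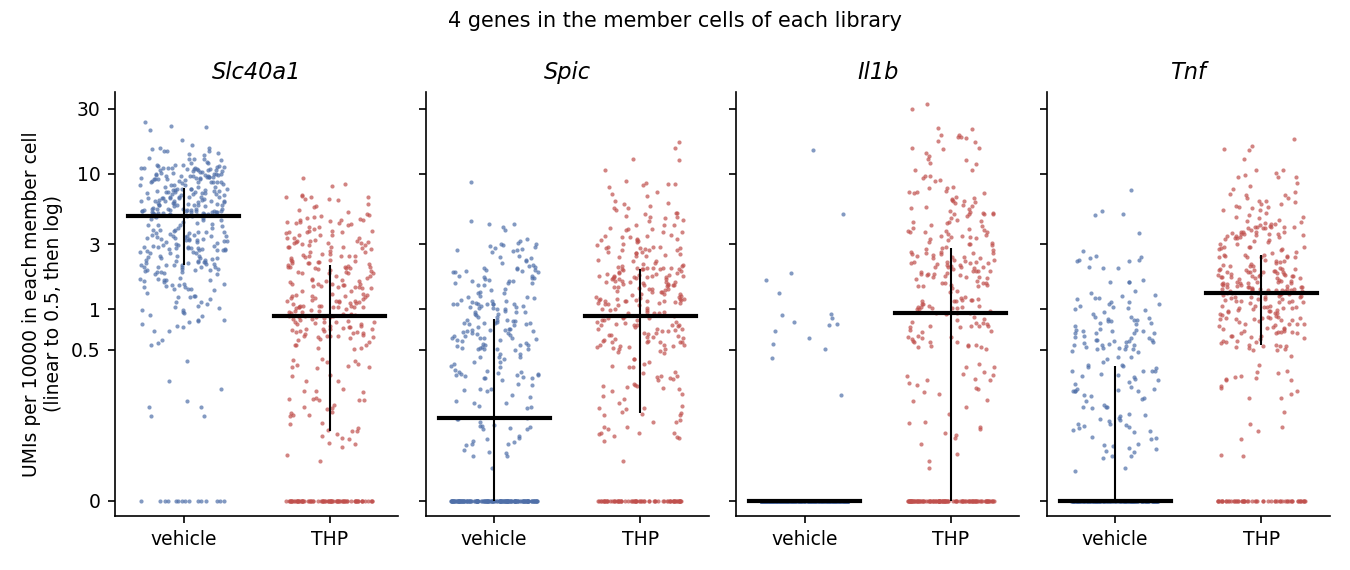
UMIs per 10000 in each member for Slc40a1, Spic, Il1b and Tnf, vehicle beside THP; each point is a cell, the horizontal bar is the median and the vertical line spans the quartiles. Slc40a1 has a median of 4.85 in vehicle and 0.885 in THP, whereas the medians of Il1b and Tnf are 0 in vehicle and 0.941 and 1.31 in THP.

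The resident list as a whole moved little. Of its 34 genes 27 were measured in members, with 1 at least 2-fold higher (Spic) and 2 at least 2-fold lower (Slc40a1 and Hpgd). Among all tested genes 1.12% were higher and 2.86% lower. The list median was -0.35, or -0.14 with TMM factors and -0.08 after the length correction. Hpgd, which degrades prostaglandins, stood at 138 and 336 CPM (-1.28). Cd5l was at 227 CPM in both libraries (0.00) and Marco was at 0.62, whereas the reference macrophages gave -0.65 and 0.09. Vcam1 was at -0.69 and Mrc1, the mannose receptor, at -0.93, from 533 CPM in vehicle to 279 in THP. The list therefore held genes that were higher, equal and lower in THP, and Timd4 was equal at -0.01.

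Genes of inflammatory cytokines were among the higher genes. Il1b (ENSMUSG00000027398, 2:129364570-129371139, minus strand), the precursor of the fever cytokine interleukin-1 beta, stood at 214 CPM (205 to 224) in THP members and 9.07 (7.24 to 11.2) in vehicle members. The log2 ratio was 4.42, the highest of all tested genes, and 3.96 to 5.37 over the alternatives. In vehicle 48.2% of its UMIs came from 1 cell. It was detected in 68.8% of THP members and 4.63% of vehicle members, or 43.7% and 1.68% after thinning, against 22.1% and 8.83% of cells with neutrophil RNA. Reference macrophages stood at 70.1 and 3.39 CPM, a log2 ratio of 4.02. Members stood 3.03-fold above them in THP and 2.29-fold in vehicle, and without the member with most Il1b UMIs in each library 2.92-fold and 1.30-fold, the latter on 4.69 against 3.39 CPM.

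Tnf, the other classical fever cytokine, stood at 192 CPM (183 to 201) in THP members and 32.6 (29.1 to 36.5) in vehicle members, a log2 ratio of 2.52. The median member held 1.31 per 10000 in THP and 0 in vehicle, and a UMI was found in 84.1% and 42.2% of members, or 51.0% and 14.8% after thinning, against 29.0% and 11.4% of cells with neutrophil RNA. In the reference macrophages Tnf stood at 148 and 25.2 CPM (2.51). Il1a, the alarmin form of interleukin-1, stood at 29.7 and 5.87 CPM (2.16) in members against 4.76 and 1.30 in the reference. Without the top member of each library, Il1a was 5.15-fold and 2.84-fold above the reference, while Tnf was 1.24-fold and 1.20-fold above it.

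Chemokine genes were higher as well. Of 18 measured genes of the inflammatory list, 12 were at least 2-fold higher in THP and 0 lower. The shares of all tested genes were 1.12% and 2.86%. The list median was 2.30 against 1.64 in the reference. Ccl3, which attracts monocytes, stood at 174 and 14.9 CPM (3.46), and Ccl4, its neighbour, at 286 and 35.3 (2.98). Whether counts were exchanged between the pair was not tested. The neutrophil attractants Cxcl1, Cxcl2 and Cxcl3 were at 2.51, 2.44 and 3.11. Cxcl10, which attracts T cells, stood at 48.6 CPM in THP and 4.80 in vehicle. Ccl12 and Ccl7, ligands of CCR2, were at 1.87 and 1.28, and Ccl2 stayed under the limit at 0.76. The acute phase gene Saa3 stood at 83.3 and 6.08 CPM (3.57), with 23.8% of its THP UMIs in 1 cell.

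Some chemokine genes stood lower in members than in reference macrophages. Ccl2 stood at 697 and 412 CPM in members against 1249 and 738 in the reference, and Ccl7 at 236 and 96.5 against 482 and 165. Il18, a cytokine of the interleukin-1 family that macrophages hold in store, was 2.08-fold and 2.05-fold over the reference and was nearly equal between libraries at -0.14. Il1rn, the natural antagonist of the interleukin-1 receptor, stood at 28.2 and 24.1 CPM (0.22). Il6, Il12b and Il10 stayed below 10 CPM in both libraries, at 0.404, 2.62 and 2.32 CPM in THP members.

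NF-kB is the transcription factor family that Toll-like and cytokine receptors switch on, and it induces its own inhibitors. Of 29 measured genes of the NF-kB list, 22 were at least 2-fold higher and 0 lower. The shares of all tested genes were 1.12% and 2.86%. The list median was 1.28 in members and 1.36 in the reference. Nfkbia, the inhibitor that takes NF-kB out of the nucleus, stood at 340 and 113 CPM (1.58), and Nfkbiz, a nuclear co-regulator, at 123 and 19.1 (2.62). Acod1, the enzyme that makes itaconate, stood at 43.9 and 2.13 CPM (3.84), below the 89.6 and 4.91 of the reference. Traf1, Bcl2a1d, Icosl and Cd40 were at 2.24, 2.08, 1.99 and 1.63, and counts of Bcl2a1 family members are uncertain because the copies are near-identical. Irf1 was the 1 gene of the list below 0, at -0.60.

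Receptors that sense bacteria moved both ways. Of 20 measured genes of the lipopolysaccharide and Toll-like receptor list, 2 were at least 2-fold higher and 3 lower, with a median of -0.22. By comparison, 1.12% and 2.86% of all tested genes were higher and lower. Cd14, which hands lipopolysaccharide to its receptor, stood at 704 and 197 CPM (1.83), and Irak3, an inhibitor of the pathway, at 71.9 and 27.0 (1.38). Tlr4, the lipopolysaccharide receptor itself, stood at 14.8 and 47.8 CPM (-1.62), and Tlr8, a sensor of RNA, at 3.94 and 20.9 (-2.15). Tlr13, a sensor of bacterial ribosomal RNA, was at -1.11 and under 2-fold with TMM or RLE factors, after thinning and after the length correction. Tlr2, for bacterial lipoproteins, was just under the limit at 0.99.

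Regulators and lectins moved both ways too. Of 25 measured transcription factors, 2 were at least 2-fold higher (Spic and Cebpd) and 3 lower (Rxra, Bhlhe41 and Cebpa). Over all tested genes the shares were 1.12% and 2.86%. The 3 lower factors were under 2-fold with TMM and RLE factors. Cebpd, an acute phase regulator, stood at 286 and 83.9 CPM (1.76). Maf, which helps to hold macrophages in their differentiated state, stood at 455 and 819 CPM (-0.85). Of 11 measured C-type lectin receptors 2 were higher and 0 lower, Cd209g and Clec4e. Clec4e, a receptor for mycobacterial glycolipid, stood at 211 and 46.4 CPM (2.16).

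**Figure D4:**
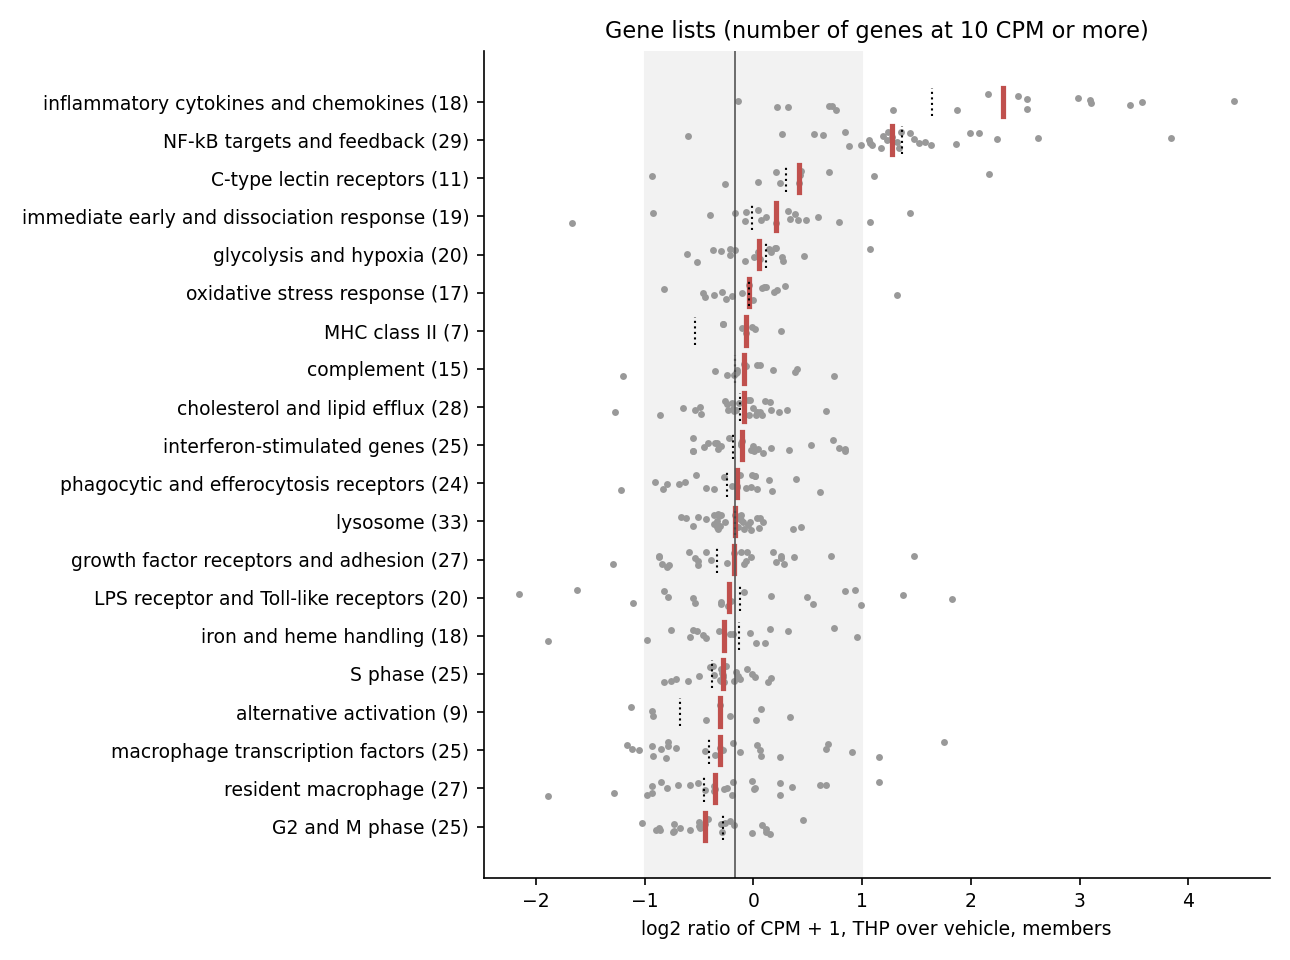
Log2 ratio of CPM + 1, THP over vehicle, of each measured gene (points) in members for 20 gene lists, with the list median in members (red bar), the list median in reference macrophages (dotted black bar) and the median of all tested genes (grey line at -0.17); the shaded band marks under 2-fold. The inflammatory and NF-kB lists have medians of 2.30 and 1.28, and the other lists have medians between -0.45 and 0.42.

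Most other lists stayed near the median of all genes. Of the 25 measured genes of the interferon list, 0 passed 2-fold in either direction and the median was -0.10. The rule itself left out cells high in 4 such genes. Of these, Ifit2 is not counted in that list and was at -1.10, but under 2-fold with TMM or RLE factors. The lysosome list (33 genes, median -0.17) and the MHC class II list (7 genes, median -0.06) also had 0 genes past the limit. Over all tested genes only 3.98% passed it in either direction, so a count of 0 in lists this short says little. The medians of the complement (-0.09), cholesterol (-0.09), phagocytic receptor (-0.15), interferon, lysosome and MHC class II lists turned positive with TMM factors. Mertk, a receptor for the uptake of dying cells, stood at 47.3 and 84.7 CPM (-0.83), and Havcr2 was the 1 phagocytic gene at least 2-fold lower, at -1.22. The G2 and M phase list had the lowest median, -0.45, with Mki67, a marker of cycling cells, at 240 and 446 CPM (-0.89).

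MHC class II genes showed a gap between members and reference macrophages. The median of the 7 genes was -0.06 in members and -0.54 in the reference. H2-Eb1 stood at 90.3 CPM in THP members and 89.4 in vehicle members (0.01) and gave -0.81 in the reference. The difference between the 2 ratios was 0.82, with a counting interval of 0.66 to 0.98. Cd74, the invariant chain, gave 0.25 and -0.40, a difference of 0.66 (0.58 to 0.73). With 1 library per group these differences have no replicate check. H2-Aa was at -0.06 in members, and -0.33 to 0.45 over the alternatives. In THP an H2-Aa UMI was found in 36.2% of members with both genes, 36.3% with Vsig4 only and 45.1% with Cd209f only. The counting intervals do not cover such unevenness between cells.

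Most of the lowest ratios belonged to genes with little RNA. Slc8a1, a sodium-calcium exchanger, stood at 2.52 CPM in THP members and 18.8 in vehicle members (-2.49), and Rnf144b, a ubiquitin ligase, at 4.24 and 28.4 (-2.49). The inflammasome gene Nlrp1b stood at 1.72 and 10.4 CPM (-2.06) and Kctd12b at 13.2 and 56.9 (-2.02). The mitochondrial gene mt-Nd6 stood at 17.6 and 71.1 CPM (-1.96), while the median member had 3.54% of its UMIs from mitochondrial genes in THP and 4.19% in vehicle. The receptor genes Tgfbr1 and Havcr2 were at -1.29 and -1.22. Each of these genes was below 0 in the reference macrophages too. For the genes named as lowest ratios this was a condition of the choice, not a result.

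For 7 of the 324 genes past 2-fold (3.98% of those tested), most UMIs of the higher library came from 1 member. The 3 higher ones were the immunoglobulin genes Igkc, Ighm and Jchain. Igkc stood at 774 and 72.2 CPM (3.40), with 82.6% of its THP UMIs in 1 cell, and the ratio was 2.63 without the top cell of each library. Without it Ighm was at 2.24. Both came close to the limit in other alternatives, Igkc at 1.06 with stricter membership and Ighm at 1.05 with Cd209f alone. An Igkc UMI was found in 50.1% of THP members and 25.3% of vehicle members. One was also found in 41.7% and 26.7% of reference macrophages and in 31.7% and 18.2% of cells with neutrophil RNA. Of the lower genes, Col1a2, a collagen of stromal cells, stood at 0.908 and 24.6 CPM (-3.75), with 95.2% of its vehicle UMIs in 1 cell, and was at -0.63 without the top cells. Nrgn went from -3.23 to -0.15 and Ctla2a from -1.44 to -0.51. Without 1 cell in each library Col1a2, Nrgn and Ctla2a were thus under 2-fold. B cell markers summed to 27.6 and 45.6 CPM over members, and stromal markers to 4.14 and 39.4.

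**Figure D5:**
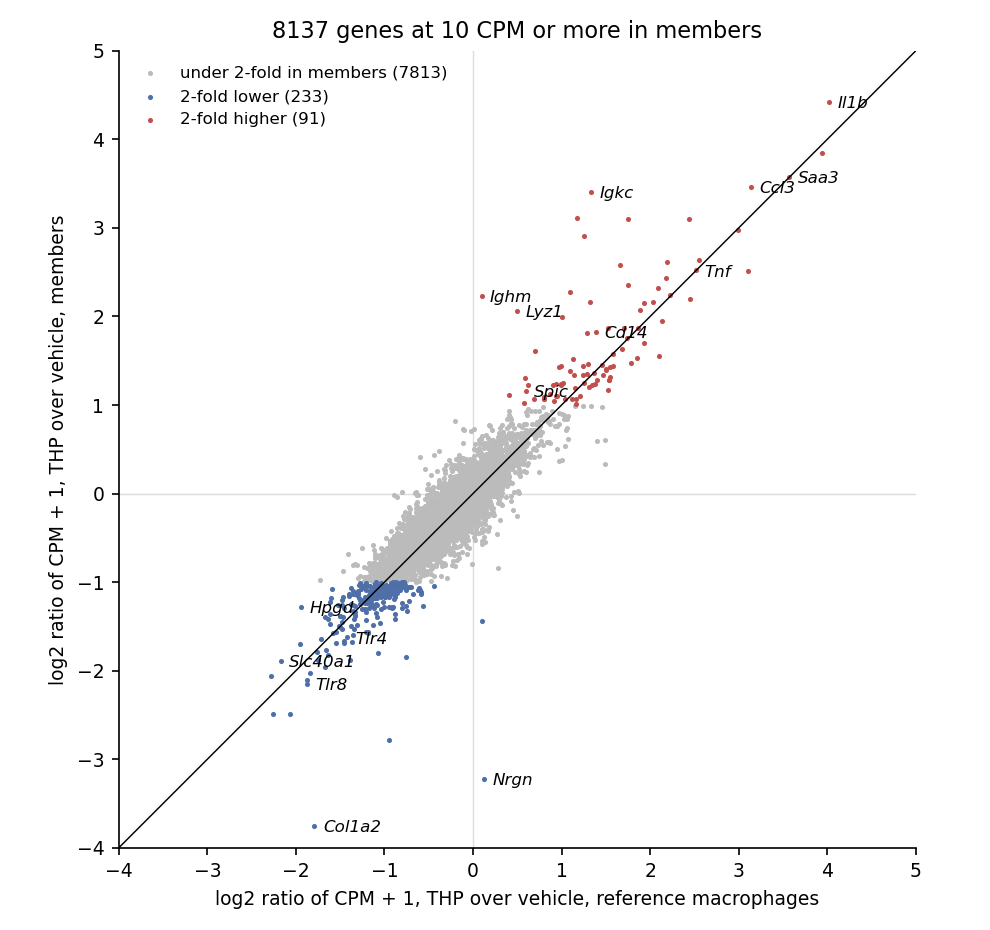
Log2 ratio of CPM + 1, THP over vehicle, in members (y axis) against reference macrophages (x axis) for the 8137 genes tested in members, coloured by whether members were at least 2-fold higher (91), at least 2-fold lower (233) or neither (the rest), with the line of equal ratios and 15 genes named. Most genes past 2-fold in members lie on the same side of 0 in the reference; Igkc, Ighm and Nrgn lie away from the line.

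The ratios of members and reference macrophages were close across genes. Of the 91 genes higher in members, 64 were also past 2-fold in the reference (of 83 there, 1.05% of 7936 tested), and 91 of 91 had the same sign. Of the 233 lower genes, 141 were past 2-fold in the reference (of 248, 3.12%), and 231 had the same sign. None was past 2-fold in opposite directions, and the correlation was 0.92 across 7806 genes, as a description, since both sets of cells come from the same 2 libraries. For Tnf the 2 ratios were 2.52 and 2.51, for Ccl4 2.98 and 3.00, and for Acod1 3.84 and 3.94. Among genes not carried by 1 cell, the ratio in members lay above that in the reference for Spic by 0.56 (0.32 to 0.80), Cd163 by 0.74 (0.56 to 0.92), Hpgd by 0.66 (0.52 to 0.80) and Cd5l by 0.66 (0.52 to 0.80). These genes are picked examples, all in the same direction. Some list medians went the other way, 1.28 in members against 1.36 for NF-kB and -0.45 against -0.28 for G2 and M phase.

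Members also differed among themselves by which selecting gene they held. Marco stood at 924 CPM in THP members with Cd209f only, 905 with both genes and 597 with Vsig4 only, and in vehicle at 563, 670 and 414. In the same order of cells, Cd163 stood at 114, 126 and 83.3 CPM in THP and at 282, 264 and 157 in vehicle. Members with Vsig4 only were thus the lowest for both scavenger receptors in both libraries. Il1b in THP was at 225, 228 and 198 CPM, and Tnf at 155, 199 and 208. Slc40a1 was lower in THP in each of the 3, at 94.5, 112 and 146 CPM against 473, 509 and 427 in vehicle.

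Promoter windows of 8 genes (Vsig4, Cd209f, Cd209g, Spic, Il1b, Ccl3, Tnf and Acod1) were searched for 3 motifs on both strands, in the 250 bases before the RefSeq start. The motifs were GGG, any 2 bases, then TTTCC for NF-kB, GAGGAAGT for PU.1 and TGCTGAC for MAF. None of the windows of the 8 genes held one of them. Among all 32851 windows 1.41%, 2.44% and 3.81% held them. The next shares count genes, not windows, and a gene counted when any of its windows matched. Of the higher genes with a window, 7.04% (5 of 71) held the NF-kB letters, against 1.81% of 6508 tested genes and 1.20% (2 of 166) of lower genes. For the PU.1 letters the shares were 7.04% (5 of 71), 3.46% and 4.82% (8 of 166), and for the MAF letters 5.63% (4 of 71), 3.50% and 4.22% (7 of 166). These are matches of letters in short windows, not binding sites, and a window without them says nothing of the factor.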

How the data were processed

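Single-cell RNA was measured in 2 libraries. Per the submitters' processing notes, bcl2fastq, Cell Ranger, STAR and the build mm10 were used, in versions not given in the sources used here. What was deposited are unnormalized UMI counts, by barcode, for 31053 genes, and per the file headers the matrices were written by software 3.1.0 in format 2. Barcodes were kept with at least 500 genes, at least 1000 UMIs and at most 10% mitochondrial UMIs, which left 12123 of 13193 (THP) and 10978 of 11584 (vehicle). No doublet caller was run. Free RNA and doublets were not removed.

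UMIs were summed over members in each library (9908538 and 9373701) and scaled to CPM. Ratios are log2 of CPM + 1, which understates the change of low genes. A gene was tested at 10 CPM or more in at least 1 library, and called at 2-fold. Intervals are exact Poisson (CPM) and Clopper-Pearson (shares), and cover counting error only. With 1 library per group there is no test between conditions. Members and gene lists were chosen with earlier results of these data known. Where several rows share a symbol, the row with more UMIs was used, and 3 list genes are not analysed here.

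Named genes were the rule's genes, the Cd209 family, the 10 highest and 10 lowest ratios with the same sign in reference macrophages, the 15 highest and 10 lowest over the reference, up to 5 genes of each list, and the 10 that differed most from the reference. Other list genes (such as Tnf, Il1a, Marco, Ccl2 and Tfrc), the promoters shown and the motifs searched were chosen after values were seen. Coordinates and transcript lengths come from GENCODE M21 (GRCm38), with lengths for 30934 genes (99.6%). Alternatives covered scaling (TMM and RLE factors from edgeR 4.0.16, used for nothing else), pseudocount, minimum CPM, fold limit, thinning, cell weight, membership rule, other-type cells and length. Leaving out the top cell of each gene, in ratios and in folds over the reference, was added after seeing the data. Python used numpy 2.4.6, scipy 1.17.1 and pandas 2.3.3. Some genes are not reported here.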

Additional observations from a re-analysis of the deposited data

How the results depend on the processing

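No paired analysis was possible because each group had 1 library, and for the same reason no replicate could be left out. The number of genes at least 2-fold higher (91) stayed within 1.5 times except at a 1.5-fold limit, where it was 234. The number lower (233) was 93 with TMM factors, 98 with RLE factors, 108 with a pseudocount of 5, 425 with a minimum of 1 CPM, 1261 at a 1.5-fold limit, 424 with cells thinned to 5000 UMIs and 78 after the length correction. The share of members in THP (2.91%) was 2.12% with stricter and 3.37% with looser membership, 1.97% with Vsig4 alone, 1.34% with Cd209f alone and 1.52% after thinning. In vehicle (3.34%) it was 2.71% with stricter membership, 2.58% with Vsig4 alone, 1.21% with Cd209f alone, 2.99% without members that passed a limit for another cell type and 2.04% after thinning. The cause of the moves with scaling factors and with the length correction was not tested.

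Of 135 genes named by the rule at 10 CPM or more, 54 were past 2-fold. Of these, 20 fell under 2-fold in at least 1 alternative and 2 changed sign, both carried by 1 vehicle cell: Col1a2 was 0.34 with Cd209f alone, and Nrgn was 0.13 with members required to have C1q and 0.18 without the 5% of cells with most UMIs. Leaving out the top cell of each gene in each library, an alternative chosen after seeing the data, gave 92 genes higher and 236 lower. Depth limits the genes with fewest UMIs, and those below 10 CPM in both libraries entered no call at the reported minimum.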
